A study of Homo sapiens with 12 samples.

Results

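MYB, GFI1, ZBTB16, RUNX1, GATA2, MEIS1, CEBPA, SPI1, IRF8 and ERG encode 10 transcription factors that set the identity of blood progenitors and of the myeloid cells that arise from them. They were picked by name, each was read on 1 row of the deposited table, and they made up 10 of the 28125 named genes tested. The cells were SKM1, an established human line from a myeloid leukaemia, on 12 arrays in 4 groups of 3. The groups were cells given APR-246 and 5-azacytidine together (APR-AZA), cells given 5-azacytidine alone (AZA), cells given APR-246 alone (APR) and untreated cells (NT). The drugs were dosed at their IC50 and the RNA was extracted 18 h later. Drug concentrations were not given in the sources used here, and all groups came from the same line, so the results describe that line alone. 5-Azacytidine is a cytidine analogue that is incorporated into RNA and DNA, where it captures and depletes DNA methyltransferases. APR-246 is converted in cells to a compound that reacts with cysteine thiols, in proteins and in glutathione.

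MYB keeps haematopoietic progenitors proliferating and immature, and its level normally declines as myeloid cells mature. RUNX1, GATA2, ERG and MEIS1 belong to the stem and progenitor programme, and GFI1 and ZBTB16 (also called PLZF) are zinc-finger repressors that hold back parts of the maturation programme. SPI1, an ETS-domain factor, and CEBPA start the myeloid programme, and IRF8 steers progenitors toward monocytes and dendritic cells.

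Signals below are log2 values normalized by RMA, in which an increase of 1 is a doubling, and a gene's signal is compared with its own signal in another group, never with the signal of another gene. The array medians lay between 4.71 and 4.79 on this scale. Of the 6 myeloid marker genes measured, ANPEP, MPO, LYZ, CSF3R and ITGAM lay above the median of every array and the monocyte receptor CD14 below it on every array. Of the markers of other blood cells, 4 of 5 T cell, 2 of 4 B cell, 3 of 5 erythroid and 3 of 5 megakaryocyte genes lay below the median on all 12 arrays, among them CD3D, CD3E, CD3G, MS4A1, PAX5, HBB, ALAS2, PPBP and GP9. Those above it on all 12 were CD79A and CD79B (B cell), HBA1 (erythroid) and PF4 (megakaryocyte), while CD5 and KLF1 lay above it on 9 arrays and ITGA2B on 4. In the AZA against NT comparison 0 of the 19 markers of T cells, B cells, erythroid cells and megakaryocytes were called with limma, also 0 at an unadjusted p under 0.05. The summed signal of the 6 myeloid markers was 12.91 to 13.09 (log2) in AZA arrays and 13.60 to 13.76 in NT arrays, and its part in the results below was not tested. The markers did not move together, since MPO (-1.40) and LYZ (-0.48), the 2 brightest in the sum, were called lower, ANPEP was called higher (0.55, limma adjusted p = 0.00102), and CSF3R (0.06), ITGAM (0.19) and CD14 (0.00) were not called. In bulk RNA, fewer cells of a kind and less RNA per cell cannot be told apart.

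Because 5-azacytidine acts on cytosine methylation, which in human DNA sits mainly at CpG, the promoters of 4 of the genes are shown for their CpG content. Each is the stretch of 250 bases before an annotated start, from RefSeq on GRCh38.p14, written 5′ to 3′ along the gene's strand with every CpG in capitals. MYB lies on the plus strand at chr6:135181058-135181307, GFI1 on the minus strand at chr1:92486926-92487175, CEBPA on the minus strand at chr19:33302535-33302784 and MEIS1 on the plus strand at chr2:66434875-66435124.
MYB: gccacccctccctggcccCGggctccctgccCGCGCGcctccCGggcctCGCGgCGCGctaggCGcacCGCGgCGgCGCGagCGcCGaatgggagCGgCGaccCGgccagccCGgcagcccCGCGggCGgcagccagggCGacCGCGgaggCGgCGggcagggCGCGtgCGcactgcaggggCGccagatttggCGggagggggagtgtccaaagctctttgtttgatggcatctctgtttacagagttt
GFI1: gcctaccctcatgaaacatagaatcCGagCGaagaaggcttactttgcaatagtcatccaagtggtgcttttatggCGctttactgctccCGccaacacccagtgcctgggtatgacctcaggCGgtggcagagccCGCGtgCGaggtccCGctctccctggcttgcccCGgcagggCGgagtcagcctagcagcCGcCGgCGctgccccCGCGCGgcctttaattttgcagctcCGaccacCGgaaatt
CEBPA: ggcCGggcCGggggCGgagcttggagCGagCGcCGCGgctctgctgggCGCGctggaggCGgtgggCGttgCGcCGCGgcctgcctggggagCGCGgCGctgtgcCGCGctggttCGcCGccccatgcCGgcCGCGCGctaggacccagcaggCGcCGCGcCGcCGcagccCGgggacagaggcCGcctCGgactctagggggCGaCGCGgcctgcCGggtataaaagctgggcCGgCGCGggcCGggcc
MEIS1: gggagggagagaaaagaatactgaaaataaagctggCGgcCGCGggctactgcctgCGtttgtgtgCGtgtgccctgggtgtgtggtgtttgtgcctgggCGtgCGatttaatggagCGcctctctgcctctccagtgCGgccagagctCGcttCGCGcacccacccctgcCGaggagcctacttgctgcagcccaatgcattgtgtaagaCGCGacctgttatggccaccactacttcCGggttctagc
The MYB stretch held 34 CpGs, CEBPA 41, GFI1 19 and MEIS1 16, against a median of 11 over the 35116 RefSeq stretches of this kind. Before its other listed starts GFI1 had 16 and 17. MEIS1, GATA2 and ERG were not called below, and GATA2 had 18 and 24 CpGs and ERG 3, 3, 2 and 44. Of the genes called in the comparisons below, IRF8 had few, with 2 and 4 CpGs before its 2 listed starts, and RUNX1 had 32. The starts listed for IRF8, RUNX1 and ERG lie inside the annotated spans of these genes. The stretch before the outer 5′ end of each was not counted. Methylation was not measured in these samples.

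A search of the 15 stretches found for 8 of the factors looked for short motifs on both strands, with overlapping matches counted separately. The MYB motif CAACNG was present before 1 start each of GATA2, IRF8 and ERG, and in 27% of all stretches. The RUNX motif TGTGGT was present before 1 start each of GFI1, IRF8 and MEIS1, and in 11% of all stretches. The GATA motif GATAAG was present before 2 overlapping ERG starts, and in 5.6% of all stretches. The SPI1 motif GAGGAAG had no match in the 15 stretches and was present in 11.2% of all. ZBTB16 and SPI1 are not shown.

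The first question was what 5-azacytidine alone did to these factors. With AZA 7 of the 10 genes were called, 6 lower and 1 higher, where 20.9% of all genes were called (11.1% lower and 9.79% higher). MYB, ZBTB16 and GFI1 fell the most, by 8.68-fold, 6.60-fold and 4.73-fold. IRF8, CEBPA and RUNX1 fell by less, between 1.72-fold and 1.23-fold, and SPI1 rose by 1.44-fold. The median log2 change was -0.43 over the 10 genes and 0.00 over all genes. Here and below, called means an adjusted p under 0.05 with limma, with Benjamini-Hochberg adjustment across the 28125 genes. These factors were listed with earlier results of the same arrays known, so their counts are descriptions of the list.

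**Figure D1:**
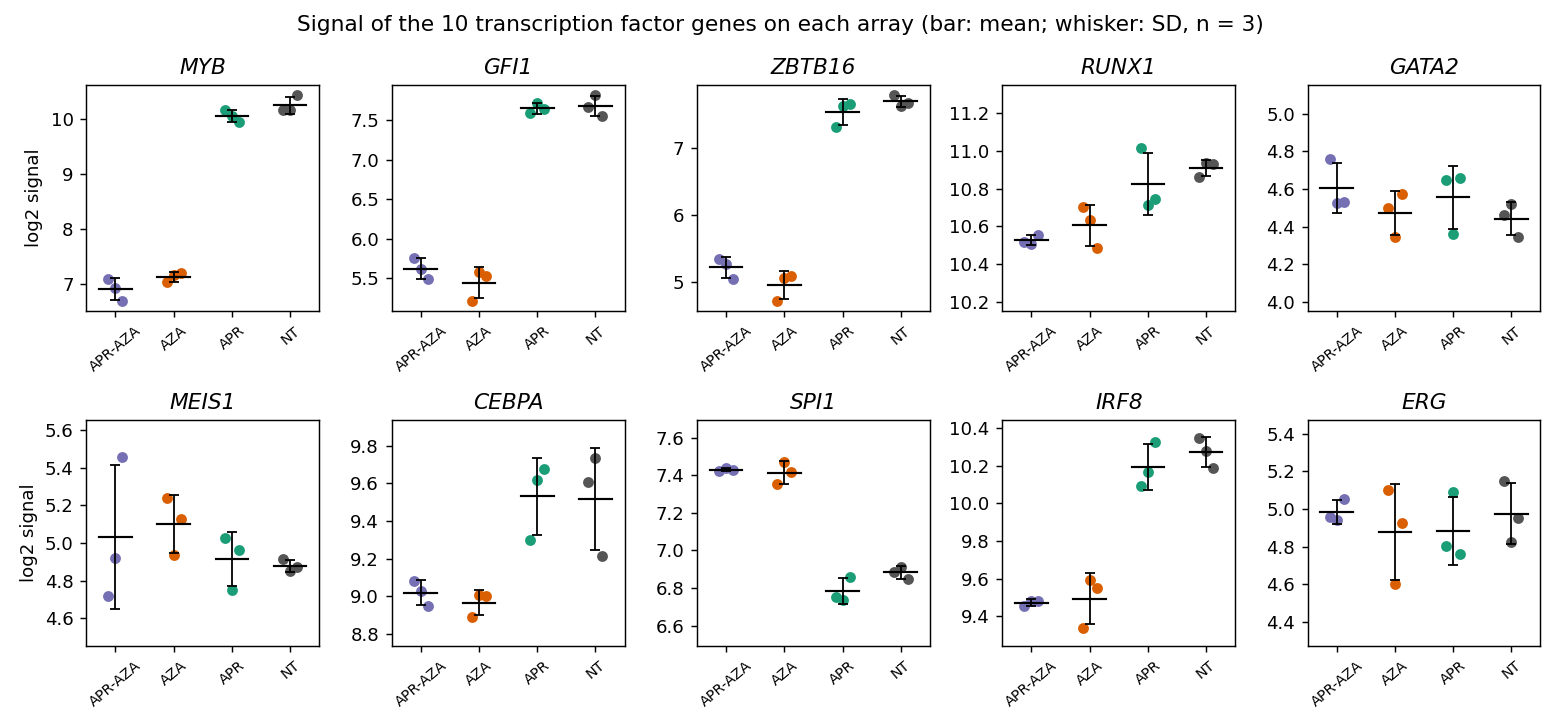
Log2 signal of each of the 10 genes on each array (points, n = 3 per group), with the group mean (bar) and SD (whisker); the y axis is set for each gene. MYB, GFI1 and ZBTB16 sit at least 1.80 log2 units lower on each AZA and APR-AZA array than on any NT array, while the AZA and NT values of GATA2 and of ERG overlap.

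MYB, the factor that holds progenitors immature, had log2 signals of 7.10, 6.93 and 6.70 in APR-AZA, 7.04, 7.17 and 7.21 in AZA, 10.17, 10.06 and 9.94 in APR, and 10.17, 10.17 and 10.44 in NT. All 6 arrays with AZA lay below all 6 without it, by more than the spread within any group. The log2 change with AZA against NT was -3.12 ± 0.11 (SE, limma adjusted p = 9.73e-10, n = 3 per group), and 0.135% of all genes had a larger change in either direction. Its group means ran, from low to high, APR-AZA (6.91 ± 0.20, SD), AZA (7.14 ± 0.09), APR (10.06 ± 0.11) and NT (10.26 ± 0.16). By limma the neighbours APR-AZA and AZA (adjusted p = 0.986) and APR and NT (adjusted p = 0.9998) were not separated from each other, and the neighbours AZA and APR were (adjusted p = 2.09e-09).

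ZBTB16, a repressor of the BTB zinc-finger class, had log2 signals of 5.34, 5.27 and 5.05 in APR-AZA, 4.73, 5.06 and 5.10 in AZA, 7.31, 7.61 and 7.65 in APR, and 7.78, 7.61 and 7.67 in NT. The arrays with AZA lay close to the array medians and far below every array without AZA. The log2 change with AZA against NT was -2.72 ± 0.12 (SE, limma adjusted p = 7.53e-09). RMA compresses low signals, so this fall may be understated.

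GFI1, a repressor that acts through a histone demethylase complex, had log2 signals of 5.76, 5.62 and 5.48 in APR-AZA, 5.22, 5.57 and 5.53 in AZA, 7.59, 7.72 and 7.64 in APR, and 7.67, 7.82 and 7.56 in NT. It split the arrays as MYB did, with no overlap between those with and without AZA. The log2 change with AZA against NT was -2.24 ± 0.11 (SE, limma adjusted p = 1.62e-08). After each gene was centred on its own mean, GFI1 and ZBTB16 had a root-mean-square difference of 0.22 log2 units over the 12 arrays, the third smallest among pairs of the 10 factors after CEBPA and IRF8 (0.16) and GATA2 and ERG (0.21). This measure is not scaled, so 2 genes that hardly change also get a small value. The group means of GATA2 and ERG spanned only 0.16 and 0.11 log2 units.

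Of the factors that drive myeloid maturation, SPI1 was called higher and IRF8 and CEBPA lower. SPI1 had log2 signals of 7.42, 7.44 and 7.43 in APR-AZA, 7.35, 7.47 and 7.42 in AZA, 6.75, 6.73 and 6.86 in APR, and 6.89, 6.91 and 6.85 in NT. Every array with AZA lay above every array without it. The log2 change with AZA against NT was 0.53 ± 0.07 (SE, limma adjusted p = 8.64e-05).

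IRF8 had log2 signals of 9.45, 9.48 and 9.48 in APR-AZA, 9.34, 9.59 and 9.55 in AZA, 10.09, 10.16 and 10.33 in APR, and 10.35, 10.28 and 10.19 in NT. The arrays with AZA lay below the others without overlap. The log2 change with AZA against NT was -0.78 ± 0.09 (SE, limma adjusted p = 2.95e-05). CEBPA had log2 signals of 9.08, 9.03 and 8.95 in APR-AZA, 8.89, 9.01 and 9.00 in AZA, 9.30, 9.62 and 9.68 in APR, and 9.61, 9.73 and 9.21 in NT. It also showed no overlap, though its NT arrays were widely spread, and its log2 change with AZA against NT was -0.55 ± 0.13 (SE, limma adjusted p = 0.00734).

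RUNX1, a core-binding factor subunit needed for definitive blood formation, had log2 signals of 10.52, 10.51 and 10.55 in APR-AZA, 10.70, 10.63 and 10.49 in AZA, 11.02, 10.72 and 10.74 in APR, and 10.86, 10.93 and 10.93 in NT. The AZA arrays lay just below the NT arrays, with a log2 change of -0.30 ± 0.09 (SE, limma adjusted p = 0.0302). RUNX1 was no longer called when AZA replicate 2 (adjusted p = 0.0615), AZA replicate 3 (0.125), NT replicate 2 (0.0862) or NT replicate 3 (0.0804) was left out, or when quantile normalization was repeated (0.0730), and its adjusted p ranged from 0.00773 to 0.125 over the alternatives. From low to high its group means ran APR-AZA, AZA, APR and NT, and no pair of neighbours in that order passed the test (AZA against APR, limma adjusted p = 0.128).

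In 5 of the factors besides MYB the group means fell into a pair with AZA and a pair without it, with only the step between the pairs passing the test. From low to high, ZBTB16 and GFI1 ran AZA, APR-AZA, APR and NT, IRF8 ran APR-AZA, AZA, APR and NT, CEBPA ran AZA, APR-AZA, NT and APR, and SPI1 ran APR, NT, AZA and APR-AZA. The middle step had a limma adjusted p of 3.90e-08 for ZBTB16, 4.55e-08 for GFI1, 8.19e-05 for IRF8, 0.0133 for CEBPA and 8.64e-05 for SPI1. The CEBPA step, APR-AZA against NT, was not called when any of 3 single arrays was left out (adjusted p up to 0.0657).

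The stem-cell factors GATA2, MEIS1 and ERG were not called with AZA. GATA2, a zinc-finger factor needed for stem cell maintenance, had log2 signals of 4.35 to 4.57 in AZA and 4.35 to 4.52 in NT, and a log2 change of 0.03 with a 95% confidence interval of -0.20 to 0.26. ERG, an ETS factor, had signals of 4.60 to 5.10 in AZA and 4.83 to 5.15 in NT, with an interval of -0.39 to 0.19 for the change. MEIS1, a homeobox cofactor of HOX proteins, had signals of 4.94 to 5.24 in AZA and 4.85 to 4.91 in NT, with no overlap, but its change of 0.22 did not pass the test (limma adjusted p = 0.414). In all, 8 of the 10 genes had no overlap between AZA and NT, where 32.1% of all genes had none. GATA2 lay above the array median on 1 of 12 arrays, ERG on 11 and MEIS1 on 10, so all 3 were read near the middle of the array's signals, where RMA compresses changes. Of the markers of other blood cells, CD5, KLF1 and ITGA2B also straddled the array median. Their signals were 4.49 to 5.20, 4.69 to 5.15 and 4.45 to 4.86. No detection call was used here, so whether GATA2, ERG and MEIS1 were expressed above background was not tested.

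**Figure D2:**
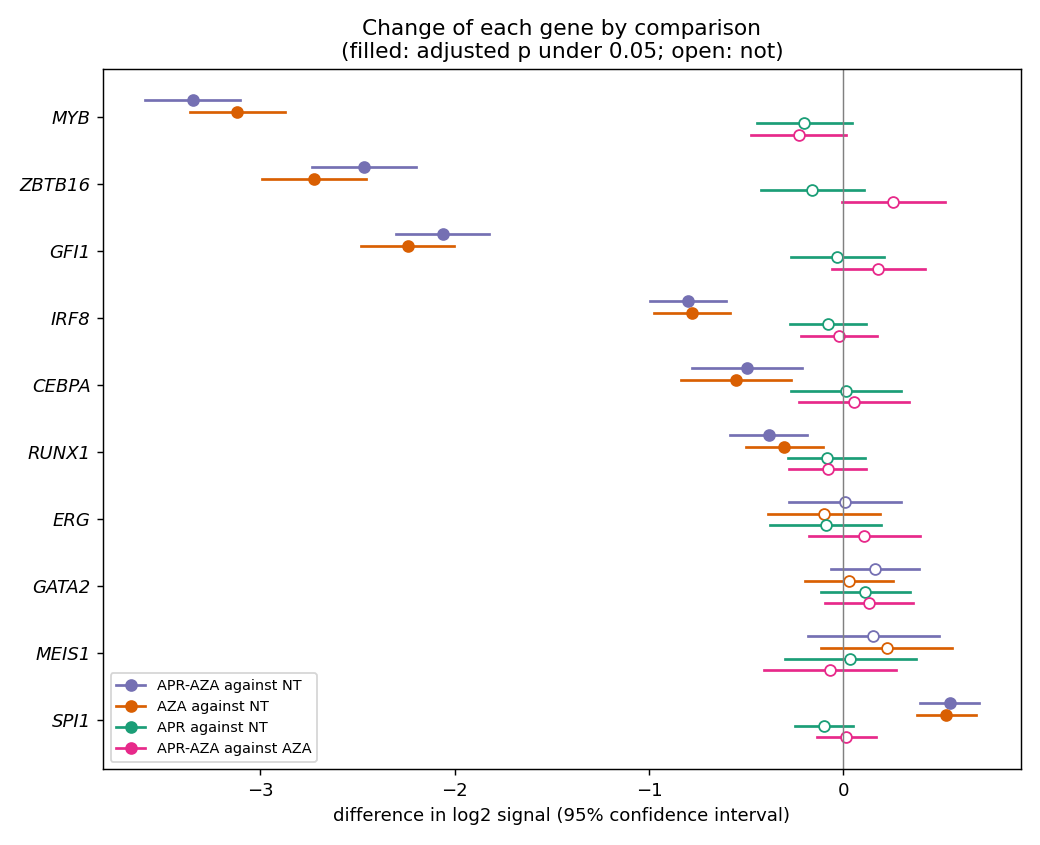
Difference in log2 signal (x axis) for each gene (rows, ordered by the AZA against NT change) in 4 comparisons, with 95% confidence intervals; filled points have a limma adjusted p under 0.05. The AZA and APR-AZA changes against NT lie close together for each gene, and the intervals of APR against NT and APR-AZA against AZA span 0 for all 10.

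With both drugs against NT 7 of the 10 genes were called, 6 lower and 1 higher, where 22.3% of all genes were called (11.9% lower and 10.4% higher). MYB was 10.2-fold, ZBTB16 5.52-fold and GFI1 4.18-fold lower, IRF8 1.74-fold, CEBPA 1.41-fold and RUNX1 1.30-fold lower, and SPI1 1.46-fold higher. In 8 of the 10 genes APR-AZA and NT values did not overlap, where 35% of all genes had none. This comparison and AZA against NT share the NT arrays. The call of CEBPA (limma adjusted p = 0.0133) did not survive the removal of NT replicate 2 (adjusted p = 0.0657), of APR-AZA replicate 3 (0.0522) or of NT replicate 1 (0.05001), and its adjusted p ranged from 0.00136 to 0.0657. GATA2 had signals of 4.52 to 4.76 in APR-AZA, the lowest of them just above the highest of the 4.35 to 4.52 in NT, with a change that was not called (limma adjusted p = 0.350). MEIS1 varied most among the APR-AZA arrays, with signals of 4.72, 4.92 and 5.46.

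APR alone gave no call among the 10 genes. With limma 0 of 10 were called against NT, and 0 at an unadjusted p under 0.05, where 0.00356% of all genes were called and 1095 genes had an unadjusted p under 0.05. A linear model without moderation also called 0. The log2 changes lay between -0.20 for MYB and 0.11 for GATA2, and APR and NT values overlapped for every gene, where 7.48% of all genes had no overlap. The 95% confidence intervals of the 10 changes all spanned 0, the lowest bound being -0.45 (MYB) and the highest 0.37 (MEIS1), and the interval of SPI1, the narrowest, ran from -0.25 to 0.05.

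The study design also asks whether APR-246 altered the response to 5-azacytidine. Against AZA alone, APR-AZA gave 0 called genes of 10 with limma, and 0 at an unadjusted p under 0.05, where 0% of all genes were called. MYB had a log2 change of -0.23 (95% confidence interval -0.47 to 0.02) and ZBTB16 one of 0.26 (-0.01 to 0.52), and APR-AZA and AZA values overlapped for every gene, where 11.6% of all genes had no overlap. Non-additivity, which is the APR-AZA change less the AZA and APR changes added together, had 0 of 10 genes called, against 0% of all genes. ZBTB16 had the 1 unadjusted p under 0.05 among them (limma adjusted p = 0.9998), with a value of 0.42 ± 0.17 (log2, SE). The linear model without moderation called 0 genes of 10 in both of these comparisons.

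5-Azacytidine on top of APR-246 gave as many calls as 5-azacytidine against NT. For APR-AZA against APR 7 of 10 genes were called, 6 lower and 1 higher, where 20.7% of all genes were called (11.2% lower and 9.45% higher), and 7 had no overlap, where 34.3% of all genes had none. MYB had a log2 change of -3.15 ± 0.11, ZBTB16 of -2.31 ± 0.12, GFI1 of -2.03 ± 0.11 and SPI1 of 0.65 ± 0.07 (SE). RUNX1 stood at -0.30 ± 0.09 (limma adjusted p = 0.0335), and its call was lost without APR replicate 1 (adjusted p = 0.136), without any 1 of the APR-AZA arrays (0.0860, 0.0950 and 0.0686 for replicates 1 to 3), with the compared groups alone (0.0705) and with quantile normalization repeated (0.0930), over a range of 0.00898 to 0.136. CEBPA (limma adjusted p = 0.0123) lost its call without APR replicate 3 (adjusted p = 0.0553), over a range of 0.00302 to 0.0553. For AZA against APR 6 of 10 genes were called, 5 lower and 1 higher, where 19.7% of all genes were called (10.6% lower and 9.11% higher), and 7 had no overlap, where 31.1% of all genes had none.

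A list of genes reported to be bound and activated by MYB was mostly lower with AZA. Of 12 measured, 10 were called lower and 0 higher, where 11.1% of all genes were called lower, and their median log2 change was -1.45. The list holds GFI1 itself, and several of its genes were known from earlier results of these arrays to have fallen, so the count is not independent evidence. ELANE, neutrophil elastase, had a mean signal of 8.30 ± 0.17 in AZA and 11.22 ± 0.16 in NT (log2, SD, n = 3), a 7.58-fold fall. PRTN3, proteinase 3, stood at 10.28 ± 0.16 in AZA and 12.80 ± 0.01 in NT, a 5.74-fold fall. The progenitor surface protein CD34 and the kinase CDK6, named after their values were seen, were the 2 not called, at -0.05 ± 0.11 and 0.07 ± 0.09 (log2, SE). With APR alone 0 of the 12 were called by limma and 2 had an unadjusted p under 0.05, where 1095 of the 28125 genes did. The median log2 change of the list with APR was -0.17, against 0.00 over all genes. APR values of AZU1, BCL2, CD34, MPO, MYC and PRTN3 lay below NT values without overlap, and those of the rest overlapped. Of all genes 7.48% had no overlap between APR and NT.

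**Figure D3:**
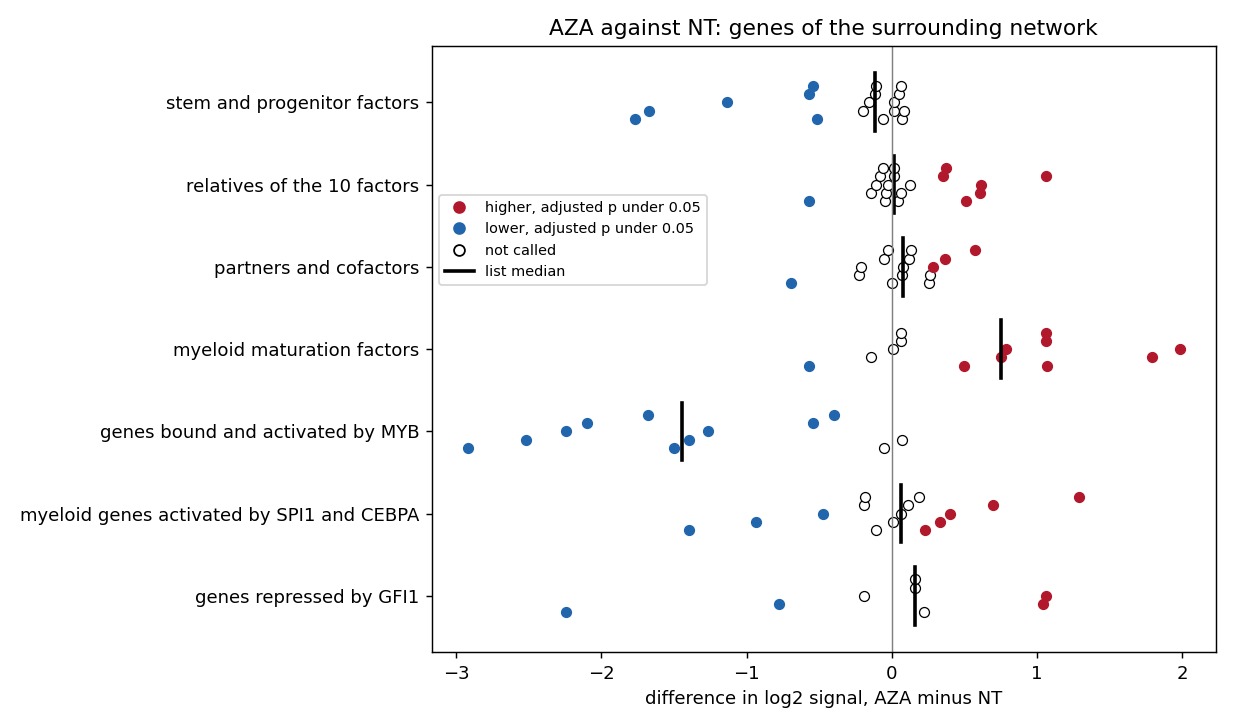
Difference in log2 signal between AZA and NT (x axis) for every measured gene of 7 lists around the 10 factors (rows; the height of a point within a row has no meaning), coloured by limma call, with the list median as a black bar. The MYB list has its median at -1.45 and the list of myeloid maturation factors at 0.75, while the other medians lie between -0.12 and 0.16.

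Other stem and progenitor factors fell in 6 of 17 measured genes with AZA and rose in 0, where 11.1% of all genes were called lower and 9.79% higher, with a median log2 change of -0.12. NFE2, an erythroid and megakaryocyte factor, was 3.41-fold lower, with 4.32 ± 0.23 in AZA and 6.09 ± 0.12 in NT (log2, SD, n = 3). Its AZA signals of 4.06 to 4.49 lay below every array median, where RMA compresses changes, so this fall may be understated. BCL11A, a repressor best known for silencing fetal globin, was 3.20-fold lower, with signals of 6.89 to 7.07 in AZA and 8.58 to 8.74 in NT. With APR-AZA against NT 6 of the 17 were called, also lower, where 11.9% of all genes were called lower.

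Transcription factors linked to myeloid maturation rose in 8 of 13 measured genes with AZA and fell in 1. Of all genes 9.79% were called higher and 11.1% lower. This list, like the others here, was chosen with earlier results of these arrays known, so its counts only describe the list. IRF1, an interferon-response factor, was 3.95-fold higher, with 7.95 ± 0.04 in AZA and 5.97 ± 0.11 in NT (log2, SD, n = 3). MXD1, a partner of MAX that opposes MYC, was 3.46-fold higher, with 9.19 ± 0.12 in AZA and 7.40 ± 0.13 in NT. CEBPE, which drives late granulocyte maturation, was the 1 that fell, with 4.80 ± 0.10 in AZA and 5.38 ± 0.16 in NT. Its AZA signals lay close to the array medians. In APR-AZA cells CEBPE stood at 5.20 ± 0.08 and was not called against NT (limma adjusted p = 0.274), and its APR-AZA against AZA difference of 0.39 did not pass the test either (limma adjusted p = 0.986).

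Among relatives of the 10 factors 6 of 19 rose with AZA and 1, CEBPE, fell, where 9.79% of all genes were called higher and 11.1% lower. CEBPB, CEBPD, CEBPE and IRF4 are on this list and on the maturation list, so these counts overlap. Other lists share genes too, among them EGR1 and MPO. CEBPB, the C/EBP member of emergency granulopoiesis and macrophages, was 2.08-fold higher, with 7.74 ± 0.10 in AZA and 6.68 ± 0.06 in NT (log2, SD, n = 3). CEBPG, a C/EBP member that pairs with ATF4, was 1.53-fold higher. MYBL2, a relative of MYB that acts in cycling cells, was not called, at -0.11 ± 0.10 (log2, SE), and MYBL1 was called higher, at 0.37 ± 0.11, and both were named after their values were seen.

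Among partners and cofactors of the factors 3 of 15 were called higher and 1 lower with AZA, where 9.79% of all genes were called higher and 11.1% lower. KDM1A, the demethylase that GFI1 recruits, was 1.62-fold lower, with 9.11 ± 0.07 in AZA and 9.80 ± 0.08 in NT (log2, SD, n = 3). The acetyltransferases EP300 and CREBBP, coactivators of MYB, were 1.48-fold and 1.29-fold higher. CREBBP (limma adjusted p = 0.0252) was no longer called when AZA replicate 1 (adjusted p = 0.112), AZA replicate 2 (0.0586), NT replicate 1 (0.102) or NT replicate 2 (0.0761) was left out or the compared groups were fitted alone (0.0637), and its adjusted p ranged from 0.00701 to 0.112. With APR-AZA against NT 1 of the 15 was higher and 1 lower, where 10.4% of all genes were called higher and 11.9% lower. These are fewer calls than with AZA alone, and the difference between these counts was not tested.

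Of 15 measured myeloid genes that SPI1 and CEBPA activate, 5 were called higher and 3 lower with AZA, where 9.79% of all genes were called higher and 11.1% lower, and their median log2 change was 0.06. CSF2RA, the receptor subunit for GM-CSF, was 2.44-fold higher, with 9.12 ± 0.01 in AZA and 7.84 ± 0.04 in NT (log2, SD, n = 3), and the macrophage marker CD68 was 1.62-fold higher. MPO, myeloperoxidase, was 2.63-fold lower, with 10.65 ± 0.23 in AZA and 12.05 ± 0.09 in NT, and IL6R was 1.91-fold lower. Of 8 measured genes listed as repressed by GFI1, which include GFI1 itself and IRF8, 2 rose and 2 fell with AZA, beside the same shares of all genes. The 2 that rose were EGR1, an immediate early factor, by 2.08-fold and CDKN1A, a cell cycle inhibitor, by 2.06-fold, and the 2 that fell were GFI1 and IRF8.

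The genes whose signal followed MYB most closely over the 12 arrays, after each was centred on its own mean, were TNFSF10 (the death ligand TRAIL), RXFP1 (a relaxin receptor), P2RY8 (a G protein-coupled receptor), ELANE and the uncharacterised LOC105375878. Their root-mean-square differences from MYB were 0.17, 0.26, 0.27, 0.28 and 0.29 log2 units, and their log2 changes with AZA against NT lay between -3.73 and -2.63. For SPI1, the 1 factor called higher, the closest were SH3BGRL3, TGOLN2, PITPNM1, IARS1 and C2orf42, with differences of 0.05 to 0.06 log2 units.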

How the data were processed

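The authors deposited 1 log2 value per gene and array, made with RMA, and Partek is named too, per the submitters' processing notes, with no version. RMA corrects background, sets arrays to a common distribution and summarises probes, so a shift of most genes one way would be removed. The chip definition and genome build were not given in the sources used here. Per the labels' protocols, total RNA was labelled with a whole-transcript kit. Of 29413 rows, 28129 carried 1 gene symbol in the platform annotation, 0 several and 1284 none. The 1284 were not analysed here, list genes without a match included. For 4 symbols on several rows the brightest was kept, which left 28125 genes, with no filter on signal.

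The test was limma 3.58.1 under R 4.3.3 (lmFit, eBayes), fitted as 1 model with 4 group means over 12 arrays (8 residual degrees of freedom), 2-sided. The fit was tested on simulated data. The members and lists were chosen with earlier results of these data known. All 10 members were named, and from each list the 2 called non-members with the largest rise and the 2 with the largest fall in AZA against NT. Likeness used the 5 genes with the smallest root-mean-square difference. Whether the arrays of each group came from separate cultures is not stated, so p-values reflect only array-to-array spread, possibly technical. Arrays have no counting depth, and their number limits the precision. No pair of arrays looked like a repeat deposit, with at most 0.096% identical values. Correlations of same-numbered arrays' deviations from their group means ran from -0.25 to 0.14 over 18 pairs, 3 of them above 0.1, so the numbers were not taken as pairs. Those of differently numbered arrays ran from -0.19 to 0.28 over 36 pairs, 9 of them above 0.1. The pairs above 0.1 all fell within 3 sets of 1 array per group, which were seen only afterwards. The first set held APR 2, NT 1, AZA 3 and APR-AZA 2. The second held APR 3, NT 2, AZA 2 and APR-AZA 3. The third held APR 1, NT 3, AZA 1 and APR-AZA 1. The highest values were 0.28 for APR 2 with NT 1 and 0.23 for NT 1 with AZA 3. No alternative used these sets as a block, and whether arrays of different groups shared a batch under other numbers was not tested. Alternatives were the loss of the dimmest 30% of genes, repeated quantile normalization, median centring, trended and robust variance, no moderation, the compared groups alone, a replicate block, array weights, the mean of repeated rows, and each array left out.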

Additional observations from a re-analysis of the deposited data

How the results depend on the processing

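The number of the 10 factors called stayed at 6 or 7 for AZA against NT, APR-AZA against NT and APR-AZA against APR, at 6 for AZA against APR, and at 0 for APR against NT, APR-AZA against AZA and non-additivity, over all alternatives run (non-additivity needs all 4 groups, so it had no fit of compared groups alone). Of 70 tests of single factors, 4 lost their call under some alternative, those of RUNX1 (AZA against NT, APR-AZA against APR) and CEBPA (APR-AZA against NT, APR-AZA against APR), and none changed sign while called. The number of all genes called for APR against NT, 1 as reported, was 2 without the dimmest 30% of genes, 0 with no moderation, with the compared groups alone or with the replicate block, and 0 to 2 when single arrays were left out: 0 without NT replicate 2 or NT replicate 3, and 2 without APR replicate 1. The replicate block called 7 factors and 5445 genes for AZA against NT, and it changed no call of the 10 factors; 0 of 12 arrays correlated best with an array of their own number. The number of arrays limits the precision, which differs between genes and is given by their standard errors and intervals.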
